A study of Drosophila melanogaster with 4 samples.

Results

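Proteasome subunit genes were examined in gut RNA of Drosophila melanogaster females fed with or without manganese. The members were every gene whose current symbol starts with Prosalpha, Prosbeta, Rpn or Rpt followed by a digit, 48 of the 13932 genes in the deposited table. They comprise 14 genes of the core particle, 18 of the regulatory particle and 16 paralogs with an R or T after the number, several of which are known from the testis. All flies were wild type of the Oregon R-C strain, so both diets share the genotype. The chemical diet of one group had no manganese added (0 ppm, the depleted diet), that of the other held 5 ppm manganese (the supplemented diet), the diets being compared to find genes that respond to manganese depletion. Parents (10 females and 10 males) laid eggs on the diet for 5 days, and recently eclosed daughters spent another 5 days on fresh food before their guts were sampled. The table has 2 libraries for each diet, named here by its letters B and C. Nothing in the labels says whether B and C came from separate sets of flies, so the spread behind each p-value may be only technical.

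The proteasome is the cell's main machine for degrading proteins tagged with ubiquitin. Its core particle is a barrel of stacked rings: outer rings of alpha subunits gate the entry, and inner rings of beta subunits hold the proteolytic sites. The regulatory particle caps the barrel. Its base carries the Rpt ATPases that unfold substrates, together with ubiquitin receptors, and its lid carries the deubiquitinase Rpn11, which cuts the ubiquitin chain off. The subunits are needed in fixed proportions, and in animals their genes are known to be controlled together, with the transcription factor cnc (the fly relative of Nrf1 and Nrf2) as an activator.

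Values are RPKM, read counts scaled by gene length and library size, and so can be compared between genes. Low values came in steps of whole reads, which gave 26121463 and 26310201 reads for the depleted libraries B and C and 24398751 and 28010388 for the supplemented ones. Of the 7 enterocyte markers, which include digestive proteases, the summed level was 14830 to 21680 RPKM and lowest in the supplemented library C, while one of them, the myosin Myo31DF, had 75.8 to 86.5 RPKM and was highest there. The depleted library C stood apart: 11 ovary and eggshell markers summed to 521 RPKM there against 1.42 to 2.88 in the other libraries, and 7 fat body markers, yolk proteins among them, to 909 against 319 to 583. In these bulk samples, fewer cells of a type and less RNA per cell cannot be told apart.

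No proteasome subunit differed between the diets by the test, and the differences were small. The test took genes whose mean over the 4 libraries reached 1 RPKM, which 32 of the 48 members had: 13 core genes, all 18 regulatory genes and 1 paralog, Rpn13R. Among the 31 core and regulatory genes, log2 fold changes (no manganese minus 5 ppm, on log2(RPKM + 1)) ran from -0.11 to 0.10, with a median of 0.01 beside 0.02 over all 7556 tested genes. In limma with Benjamini-Hochberg adjustment over all tested genes, 0 of the 31 passed an adjusted p of 0.05 (adjusted p = 0.873 to 0.995), where 0% of all tested genes were called. Without adjustment, 0 subunits had a p under 0.05, beside 2.89% of all tested genes on the higher side and 2.95% on the lower side. An absolute log2 fold change under 0.2, a limit set after the values were seen, was met by 31 of 31 subunits, by 72.7% of all tested genes and by 72.6% of those with a mean of at least 5 RPKM. The 95% intervals of single subunits reached down to -0.39 and up to 0.40 on the log2 scale, that is 0.765-fold and 1.32-fold, so shifts inside those bounds cannot be told from 0. The summed RPKM of the core and regulatory genes made up 0.376% and 0.379% of the summed RPKM of all genes on the depleted diet and 0.374% and 0.386% on the supplemented diet, so the diets overlapped in that share.

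**Figure D1:**
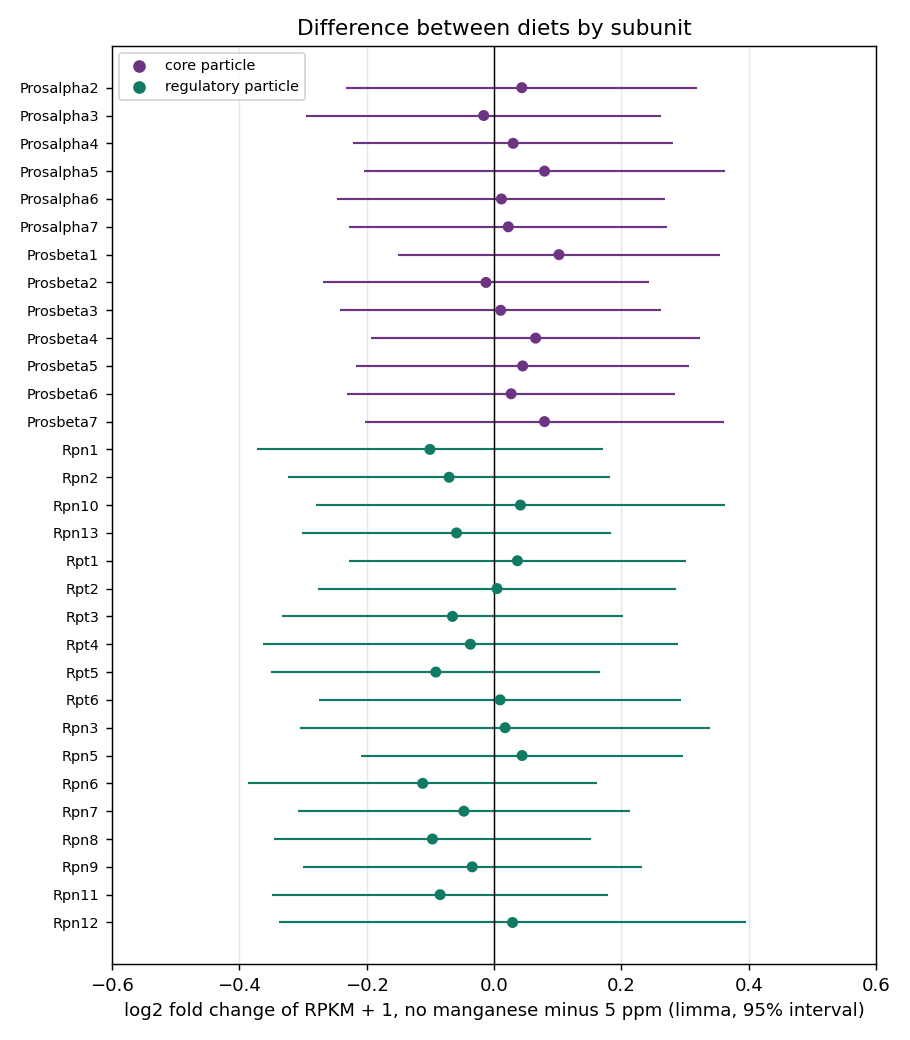
Log2 fold change of RPKM + 1 between diets (x axis, no manganese minus 5 ppm) for each tested core and regulatory subunit gene (y axis), with its 95% limma interval from 2 libraries per diet. Every interval crosses 0, core genes lie between -0.02 and 0.10, and regulatory genes between -0.11 and 0.04.

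In the alpha ring, which gates the barrel, 5 of 6 tested genes had a fold change above 0, beside 4258 of all 7556 tested genes. None of the ring passed, and Prosalpha6 turned below 0 with each of the other scalings tried. Prosalpha5 had 85.4 and 92.9 RPKM in the depleted libraries B and C and 81.6 and 86.9 in the supplemented libraries B and C. Its ranges overlapped between the diets (log2 fold change 0.08 ± 0.11 SE, limma adjusted p = 0.919). Prosalpha2, the highest of the ring, had 103 and 94.1 RPKM on the depleted diet and 95.1 and 95.5 on the supplemented diet. Only library B on the depleted diet stood above the others, and the fold change was 0.04 ± 0.10 SE (limma adjusted p = 0.968). Prosalpha3, the 1 alpha gene below 0 in fold change, had 78.6 and 81.4 RPKM on the depleted diet against 77.3 and 84.7 on the supplemented diet, the supplemented values lying on both sides of the others. Prosalpha4, Prosalpha6 and Prosalpha7 had fold changes of 0.01 to 0.03. No value came from Prosalpha1, which is listed at 0 RPKM in every library although the ring cannot form without this subunit. Prosalpha1 (FBgn0263121) lies on chromosome 2R from 7827303 to 7828678 on the minus strand (BDGP6 assembly, dm6 coordinates). A paralog, Prosalpha1R, lies beside it from 7830413 to 7831771 and is listed at 0 as well. Their 3 coding blocks have equal lengths of 479, 177 and 76 bases, each 3110 bases apart. How reads matching both copies were counted was not given in the sources used here, and its part in the zeros was not tested, so no level is given for either gene.

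The beta ring holds the proteolytic sites in 3 of its subunits, Prosbeta1 (caspase-like), Prosbeta2 (trypsin-like) and Prosbeta5 (chymotrypsin-like). Prosbeta1 had 73.5 and 73.2 RPKM in the depleted libraries and 69.7 and 66.9 in the supplemented libraries. Both depleted values were above both supplemented values, a difference of 7.42% of the supplemented mean that did not pass (0.10 ± 0.10 SE, limma adjusted p = 0.873). With a correction for exon length its log2 fold change was 0.012. Prosbeta2 had 96.9 and 94.0 RPKM on the depleted diet and 96.6 and 96.1 on the supplemented diet, so the diets overlapped (-0.01 ± 0.10 SE, limma adjusted p = 0.992). Prosbeta5 had 98.5 and 94.1 against 94.6 and 92.0 RPKM, also overlapping (0.05 ± 0.10 SE, limma adjusted p = 0.966). Among the catalytic subunits, the deposited values separated the diets for Prosbeta1 and overlapped for Prosbeta2 and Prosbeta5. With the length correction, 0 genes of the beta ring were higher without overlap and 3 lower, beside 17.5% and 17.2% of all genes. Of the structural beta subunits, Prosbeta7 had 83.4 and 88.8 RPKM on the depleted diet and 84.8 and 78.2 on the supplemented diet, overlapping (0.08 ± 0.11 SE, and 0.015 with the length correction). Prosbeta4 had the highest level of the core and regulatory genes in each of the 4 libraries, with 110 and 107 RPKM on the depleted diet against 104 and 103 on the supplemented diet. Its diets did not overlap, but the log2 fold change of 0.07 ± 0.10 SE did not pass (limma adjusted p = 0.928). With the length correction Prosbeta4 was at -0.028, Prosbeta2 at -0.088 and Prosbeta5 at -0.024. Prosbeta3 and Prosbeta6 had fold changes of 0.01 and 0.03.

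Across the core particle, 11 of 13 tested genes had a fold change above 0, beside 4258 of all 7556 tested genes. The core median was 0.03, a fold of 1.02. Of the core genes, 4 had both depleted values above both supplemented values (Prosalpha4, Prosalpha7, Prosbeta1 and Prosbeta4) and 0 the reverse. Over all tested genes, 21.7% were higher without overlap and 15.2% lower. The core median was 0.01 with median scaling, 0.0039 with TMM scaling and -0.0056 with quantile normalization, so its direction was not stable. The core genes above and below 0 numbered 9 and 4, 8 and 5, and 6 and 7 in that order. Over all tested genes they numbered 3990 and 3566, 3797 and 3759, and 3823 and 3732. With a correction for exon length the core median was -0.04, with 0 higher and 4 lower genes without overlap, beside 17.5% and 17.2% of all genes. Short genes tended to be higher on the depleted diet throughout the table (Spearman's rho of fold change and exon length -0.27). That value is across 7506 genes, which share the same libraries. Across the 31 core and regulatory genes together the rho was -0.59. It was -0.11 within the core particle and -0.31 within the regulatory particle. Median exon bases were 973 for the core genes, 1589 for the regulatory genes and 2024 over all tested genes. The part of exon length in the core direction was not tested.

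**Figure D2:**
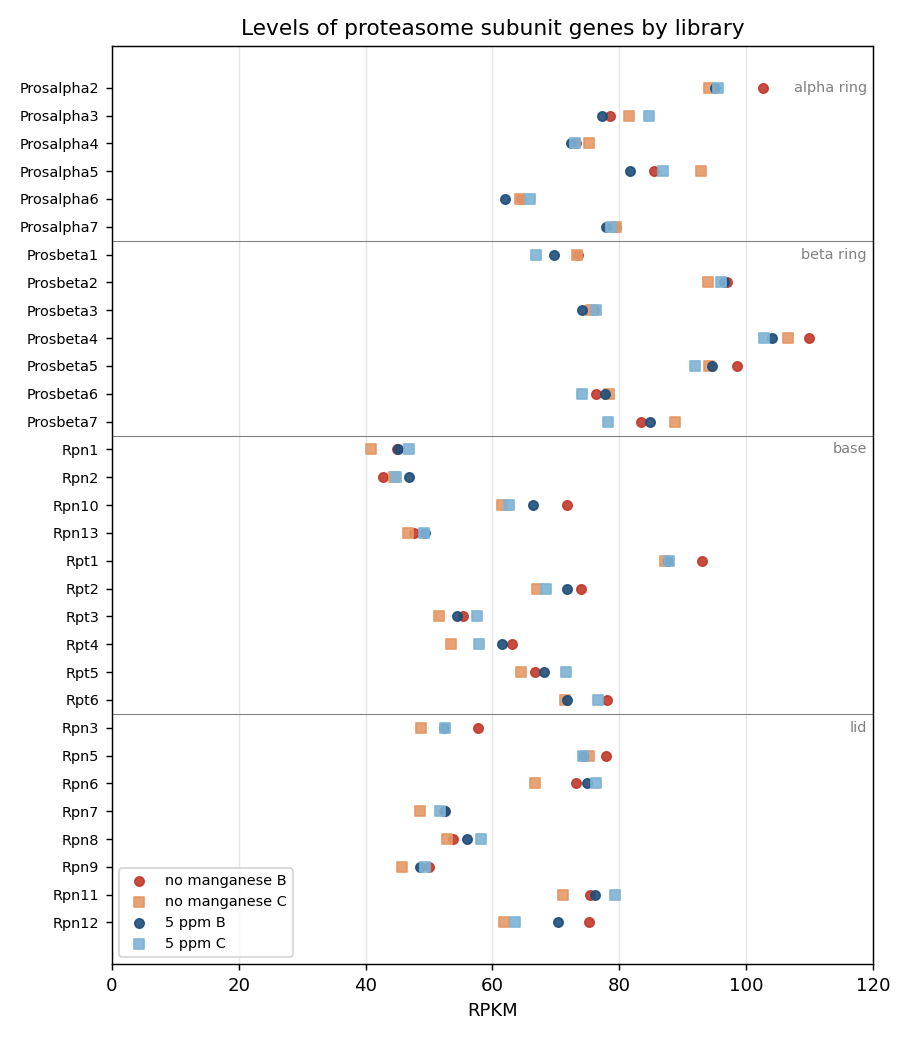
RPKM (x axis) of the tested core and regulatory genes (y axis) in the 4 libraries, 1 point per library, in blocks for the alpha ring, beta ring, base and lid. Within each gene the diets lie close together, and Prosbeta4 is the highest gene in all 4 libraries.

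In the regulatory particle, the base genes spanned a wider range of levels than the core. Mean levels ran from 44.5 RPKM for Rpn1, a scaffold subunit that binds ubiquitin-like domains, to 88.9 for the ATPase Rpt1, a ratio of 2.00, against a ratio of 1.65 between the highest and lowest core gene. Rpn1 had 45.0 and 40.9 RPKM in the depleted libraries B and C and 45.2 and 46.9 on the supplemented diet. Both depleted values were below both supplemented values, library C more so than B (-0.10 ± 0.10 SE, limma adjusted p = 0.886). The ATPase Rpt5 had 66.7 and 64.4 RPKM on the depleted diet and 68.1 and 71.7 on the supplemented diet, likewise without overlap (-0.09 ± 0.10 SE, limma adjusted p = 0.891). The scaffold subunit Rpn2 and the ubiquitin receptor Rpn13 also had lower values without overlap, at -0.07 and -0.06, and none of these passed. The ubiquitin receptor Rpn10 had 71.7 and 61.4 RPKM on the depleted diet and 66.4 and 62.6 on the supplemented diet, the depleted libraries lying above and below both others. Rpt1 had 93.1 and 87.2 against 87.7 and 87.9 RPKM, and Rpt6 78.1 and 71.4 against 71.8 and 76.7. Rpt2 had 73.9 and 67.0 on the depleted diet and 71.8 and 68.5 on the supplemented diet. In these 4 genes the depleted library B was the highest of all libraries and library C the lowest, with fold changes of 0.00 to 0.04. Rpt3 and Rpt4 had fold changes of -0.07 and -0.04.

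Among the lid genes, Rpn6, a structural subunit that ties lid to core, had 73.2 and 66.7 RPKM on the depleted diet and 74.9 and 76.3 on the supplemented diet. The diets did not overlap, and the log2 fold change of -0.11 ± 0.10 SE was the largest of the core and regulatory genes in size (limma adjusted p = 0.873). Rpn8, the partner of Rpn11 in the deubiquitinating module, had 53.8 and 52.8 RPKM on the depleted diet against 56.1 and 58.2 on the supplemented diet (-0.10 ± 0.09 SE, limma adjusted p = 0.881). Rpn11 itself had 75.3 and 71.2 against 76.1 and 79.3 RPKM (-0.08 ± 0.10 SE, limma adjusted p = 0.909). These members of the lid were lower on the depleted diet in both libraries, by amounts no larger than about 1 standard error. With the length correction Rpn8 and Rpn11 were each at -0.15. Rpn5 was the 1 regulatory gene higher without overlap, with 78.0 and 75.2 RPKM on the depleted diet and 74.3 and 74.2 on the supplemented diet (0.04 ± 0.10 SE). Rpn12 had 75.1 and 61.9 against 70.3 and 63.5 RPKM, and Rpn3 57.8 and 48.7 against 52.4 and 52.5. In both of them the depleted libraries lay on either side of the supplemented libraries, and the fold changes were 0.03 and 0.02. Rpn7 and Rpn9 had fold changes of -0.05 and -0.03. Rpn9 and Rpt5 lie on chromosome 3R, 22.9 and 44.4 kb beyond the neighbouring genes prt, CG31468, Gba1a and Gba1b. Those neighbours were lower on the depleted diet without overlap, as were 15.2% of all tested genes. Of them, prt had 2.36 and 1.34 RPKM on the depleted diet and 17.66 and 14.96 on the supplemented diet. No neighbour passed the test (limma adjusted p = 0.261 to 0.776). Any bearing of them on Rpn9 and Rpt5 was not tested. Other genes overlapped more than 10% of exon bases in 2 members, Rpn9 (15.7%) and Rpt6 (13.0%), and the strand setting was not given in the sources used here.

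In the regulatory particle, 11 of 18 genes had a fold change below 0 and 7 above (3298 and 4258 of all 7556 tested genes). The particle's median was -0.04, a fold of 0.971. Without overlap, 7 genes were lower and 1 higher, beside the 15.2% and 21.7% of all tested genes given above. This direction rested on a single library. Without the depleted library C, 10 of 18 genes were above 0 and the median was 0.02, with 9 higher and 7 lower without overlap beside 36.6% and 33.7% of all genes, and without the depleted library B the median was -0.10, with 1 gene higher and 17 lower without overlap beside 40.4% and 26.7% of all genes. The split was 5 above and 13 below 0 with median scaling, and 4 and 14 with both quantile normalization and TMM scaling. With the length correction the median was -0.08, with 0 genes higher and 8 lower without overlap, beside the 17.5% and 17.2% of all genes.

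The depleted library C, the one with ovary and eggshell RNA, was low in the regulatory particle but not in the core. It held the lowest of the 4 values for 16 of 18 regulatory genes (88.9%), for 2 of 13 core genes (15.4%) and for 18.4% of all tested genes. Measured against library B of the same diet, 17 of 18 regulatory genes were lower in C, as were 8 of 13 core genes (61.5%). Over all tested genes, 44.8% were lower. The regulatory genes had a median log2 difference of -0.12. For the core genes that difference was -0.0039, for all tested genes 0.03, and for the regulatory genes between the supplemented libraries 0.00. The member values rest on 1449 to 4275 reads, a counting error of 1.53% to 2.63%. The 95% Poisson intervals of the depleted libraries, which cover counting error only, lay apart for 10 of 18 regulatory genes and for 1 of 13 core genes. Between the supplemented libraries they lay apart for 1 and 2. The same share over all tested genes was not computed, so how unusual these counts are cannot be said. The median core gene had 1.42 times the level of the median regulatory gene in that library, against 1.22 to 1.30 times in the other 3 libraries. With the length correction, the core stood 0.09 above the regulatory particle in that library, relative to each gene's mean on the log2 scale, and between 0.02 and 0.08 below it in the others. No test was made of this difference between particles, and the part of the ovary RNA in it was not tested.

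**Figure D3:**
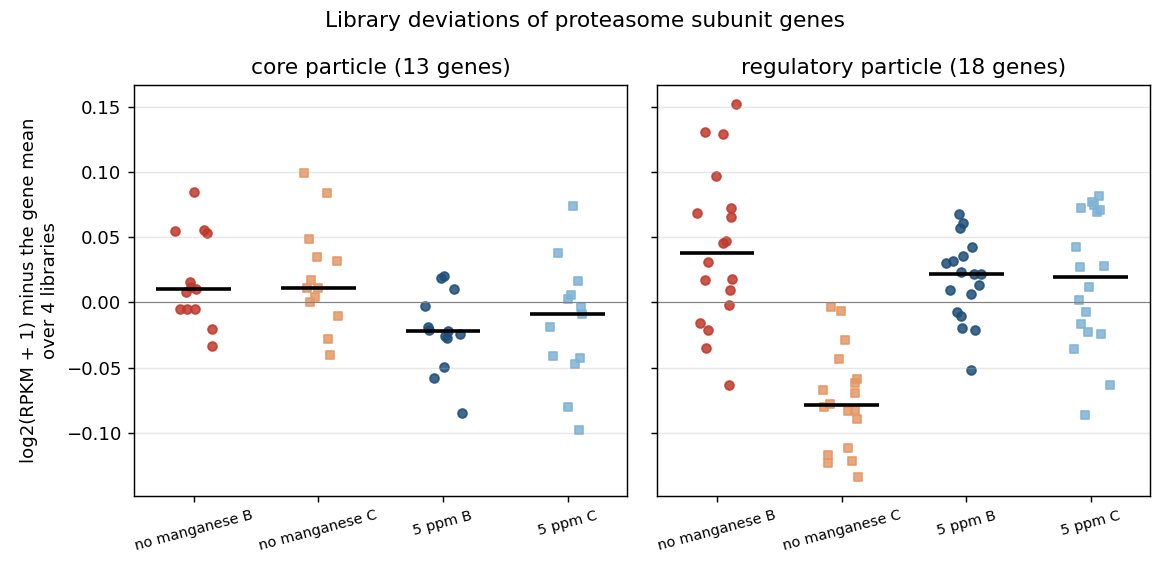
Deviation of each gene's log2(RPKM + 1) from its mean over the 4 libraries (y axis) by library (x axis), for 13 core genes (left) and 18 regulatory genes (right), with black bars at the medians. The regulatory genes lie low in the depleted library C, with a median of -0.08, while the core genes in that library have a median of 0.01.

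Of the 16 paralogs, 9 were listed at 0 in every library: Prosalpha4T1, Prosalpha6T, Prosbeta2R1, Prosbeta2R2, Prosbeta4R1, Prosbeta5R1, Prosbeta5R2, Rpn12R and Prosalpha1R. Since Prosalpha1 is listed at 0 too, these zeros are given as listed and not as a level. Another 6 had between 1 and 9 reads in the 4 libraries together. Rpt3R, the highest of them, had 4 and 3 reads in the depleted libraries B and C and 1 and 1 in the supplemented ones. Rpt4R had 2 and 2 reads against 0 and 0, and Rpt6R 2 and 1 against 0 and 1. Prosalpha3T had 1 read in the depleted library B and 1 in the supplemented library C, Prosalpha4T2 2 in the supplemented library C, and Prosbeta4R2 1 in the supplemented library B. Reads this few allow no comparison between diets. Among 15 testis markers, 13 were under 0.25 RPKM in every library, with the protamine genes ProtA and ProtB listed at 0, while fzo and mia had 1.78 to 4.41 RPKM.

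Rpn13R was the paralog with the most reads, with 23 and 30 reads in the depleted libraries B and C and 36 and 46 in the supplemented libraries. In RPKM these were 0.809 and 1.05 on the depleted diet against 1.36 and 1.51 on the supplemented diet, lower in both libraries and without overlap. It did not pass the test (log2 fold change -0.34 ± 0.16 SE, 95% interval -0.75 to 0.07, limma adjusted p = 0.802), although it was the tested member farthest from 0. Its mean of 1.18 RPKM reached the filter of 1 RPKM only through the supplemented diet (mean 1.43), the depleted mean being 0.929. That rank and the lack of overlap thus belong to a gene let into the test by its higher diet. The offset of 1 RPKM shrinks the fold of so low a gene; with an offset of 0.1 it was -0.58. With 1 library left out the fold change ran from -0.43 to -0.25. Rpn13R (FBgn0029745) lies on the X chromosome from 5131898 to 5132985 on the plus strand, in 1 exon. Its relative Rpn13, the ubiquitin receptor, was 40.8-fold higher, with 47.7 and 46.8 RPKM on the depleted diet and 49.3 and 49.1 on the supplemented diet. Rpn13 too was lower without overlap, by a much smaller amount (-0.06 ± 0.09 SE, and -0.10 with the length correction).

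**Figure D4:**
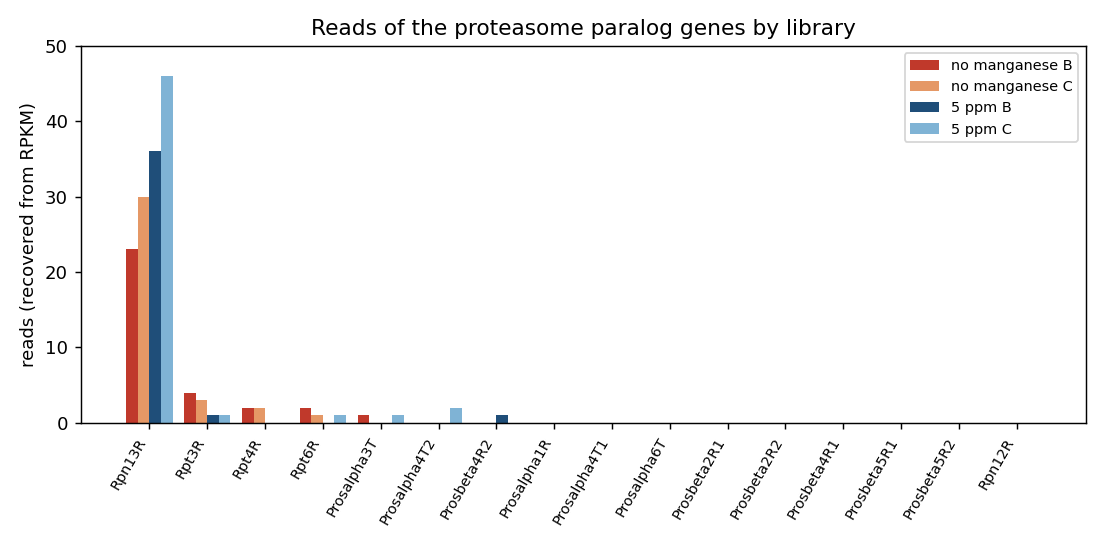
Reads recovered from RPKM (y axis) for the 16 paralog genes (x axis), 1 bar per library. Rpn13R has 23 to 46 reads, no other paralog more than 4 in a library, and 9 are listed at 0.

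The genes that build, activate and feed the proteasome were read as a list of 43 tested genes, including assembly factors, activators, ubiquitin genes, ubiquitin-conjugating enzymes and ligases. Of these, 24 had a fold change above 0 and 19 below, beside 4258 and 3298 of all 7556 tested genes. The list median was 0.01, and 0 passed the adjusted test (limma adjusted p = 0.802 to 0.999). The split was 15 above and 28 below with TMM scaling, beside 3797 and 3759 of all tested genes. The list thus has no stable direction. Without adjustment, 1 gene had a p under 0.05, on the higher side, where 2.89% of all tested genes were. That count was 0 with the length correction, where 158 of all 7506 tested genes were higher and 221 lower. With the letters as a block it was 3 higher and 1 lower, beside 446 and 432 of all 7556 tested genes. Without overlap 7 were higher and 4 lower, shares close to or below the 21.7% and 15.2% of all genes. The activator cnc had 75.1 and 89.6 RPKM on the depleted diet and 83.7 and 76.6 on the supplemented diet, the depleted libraries lying on both sides of the others. Keap1, which holds cnc in check, had 7.97 and 17.1 against 8.56 and 6.45 RPKM. Its fold change of 0.60 ± 0.37 SE rested on the depleted library C, without which it was 0.09. Sem1, the small lid subunit that the symbol rule leaves out, had 151 and 142 RPKM on the depleted diet and 154 and 137 on the supplemented diet (0.01 ± 0.12 SE). Its RPKM was above that of every counted member. The core maturation factor Pomp, the regulator PI31 and the activator REG (the fly PA28 gamma) had fold changes of 0.09, -0.01 and 0.07. Uch-L5, a deubiquitinase that docks on Rpn13, was the gene with an unadjusted p under 0.05. It had 15.08 and 15.98 RPKM on the depleted diet and 11.7 and 13.1 on the supplemented diet, higher in both libraries (0.30 ± 0.10 SE, limma adjusted p = 0.802). Its unadjusted p in limma was 0.0704 with the length correction, 0.0208 with the block of letters and 0.0363 with both. With 1 library left out its log2 fold change ran from 0.23 to 0.38. The ubiquitin-conjugating enzyme Ubc2 had 21.9 and 19.7 against 17.9 and 15.6 RPKM (0.30 ± 0.12 SE). The ubiquitin ligases hyd and Ufd4 lay on the other side, without overlap, at -0.23 ± 0.10 SE and -0.18 ± 0.10 SE. With the length correction, no gene of the list was below -0.15. CG13319 and Atf6, a sensor of endoplasmic reticulum stress, had 0.34 and 0.22 without that correction. None of these passed.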

How the data were processed

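RPKM values come from the table that the authors deposited, which has 1 column per library. Per the submitters' processing notes, STAR 2.5.2b, DESeq2 and build dm6 were used, without a stated role; the annotation, the counter, its strand setting and its handling of multiply matching reads were not given in the sources used here. Column names give the diet, a replicate letter and a further number. Each column was placed in a diet by its name but was not matched to a numbered sample. Symbols matched 13852 of 13932 identifiers; positions and exon lengths came from Ensembl release 115 (BDGP6, dm6 coordinates). Library reads came from the whole-read steps of low values: 84.6% to 85.6% of values under 20 reads lay within 0.02 of a whole number.

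Models were fitted in R 4.3.3 with limma 3.58.1 to log2(RPKM + 1) of all genes with a mean of at least 1 RPKM (7556), with a variance trend, 2-sided, adjusted by Benjamini-Hochberg. No exact permutation test was used, since with 2 libraries a diet its smallest p is 0.333. The fit was tested on simulated data with changes far larger than those of the subunits. Such data cannot show whether shifts as small as those of the subunits would be found. The members and lists were chosen with earlier results of these data known. Per-library values are given for the catalytic subunits, the 2 smallest p in each of 4 subcomplexes, genes opposite in sign to their particle's median and paralogs with reads (in part as read counts); Prosbeta4, Rpn11 and Rpn13 were added after their values were seen. In the pathway list, 43 of 45 names matched. Alternatives covered pseudocount, filter, scaling, exon length, variance model, letters as a block, voom on recovered reads and each library left out. No sequence was printed because the reference used here holds none.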

Additional observations from a re-analysis of the deposited data

How the results depend on the processing

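Each diet has 2 libraries. Leaving out the depleted library C turned the sign of the regulatory median. The length correction and quantile normalization each turned the sign of the core median. Below, medians are listed as moved against a spread of 0.0064 for the core particle and 0.059 for the regulatory particle. The regulatory median is thus often not listed although its value changed. It was -0.042 in the main fit, -0.058 with median scaling, -0.065 with quantile normalization and -0.068 with TMM scaling. With the length correction it was -0.083, and with voom -0.026. Under all 17 alternatives, 0 members passed the adjusted test. Over all genes, 10 higher and 1 lower passed without the depleted library B and 5 higher without the depleted library C, against 0 with all libraries. The letters B and C were used as a block as an alternative: same-letter libraries deviated together (correlation 0.34 over all tested genes and 0.28 over the members), but 2 pairs cannot show that letters pair the samples. With the block, an unadjusted p under 0.05 was reached by 446 genes on the higher and 432 on the lower side, and 0 were called (smallest adjusted p 0.0659). With median scaling, the values that moved were the median of the core particle 0.015, core particle genes without overlap and higher 2, regulatory particle genes without overlap and higher 0. Single genes that changed sign on the log2 scale had Prosalpha6 -0.0038, Prosbeta3 -0.0051, Rpt2 -0.011, Rpt6 -0.0058, Sem1 -0.0048. With quantile normalization, the values that moved were the median of the core particle -0.0056, the median of the core and regulatory genes -0.021, core particle genes without overlap and higher 2, core particle genes without overlap and lower 1, regulatory particle genes without overlap and higher 0. Single genes that changed sign on the log2 scale had Prosalpha4 -0.0056, Prosalpha6 -0.0067, Prosalpha7 -0.019, Prosbeta3 -0.021, Prosbeta6 -0.0058, Rpt1 -0.0061, Rpt2 -0.037, Rpt6 -0.031, cnc -0.0076. With TMM scaling, the values that moved were the median of the core particle 0.0039, core particle genes without overlap and higher 1, regulatory particle genes without overlap and higher 0. Single genes that changed sign on the log2 scale had Prosalpha6 -0.014, Prosalpha7 -0.0037, Prosbeta3 -0.016, Rpt2 -0.021, Rpt6 -0.016, Rpn3 -0.0085, Sem1 -0.016. With the length correction (and in the fit with the block of letters and the length correction), the values that moved were the median of the core particle -0.041, the median of the core and regulatory genes -0.058, core particle genes without overlap and higher 0, core particle genes without overlap and lower 4, regulatory particle genes without overlap and higher 0. Single genes that changed sign on the log2 scale had Prosalpha2 -0.041, Prosalpha4 -0.037, Prosalpha5 -0.0032, Prosalpha6 -0.062, Prosalpha7 -0.058, Prosbeta3 -0.075, Prosbeta4 -0.028, Prosbeta5 -0.024, Prosbeta6 -0.056, Rpn10 -0.012, Rpt1 -0.013, Rpt2 -0.040, Rpt6 -0.045, Rpn12 -0.049, Rpn3 -0.022, Sem1 -0.12. With voom on recovered reads, the values that moved were the median of the core particle 0.048, regulatory particle genes without overlap and higher 2, regulatory particle genes without overlap and lower 4. Single genes that changed sign on the log2 scale had Prosalpha3 0.0010, Prosbeta2 0.0046, PI31 0.0062. With 1 library left out, the ranges were the median of the core particle 0.020 to 0.036, the median of the regulatory particle -0.10 to 0.018, the median of the core and regulatory -0.042 to 0.020, core particle genes without overlap and higher 7 to 8, core particle genes without overlap and lower 0 to 3, regulatory particle genes without overlap and higher 1 to 9, regulatory particle genes without overlap and lower 7 to 17. Over all genes, 36.6% to 40.4% were higher and 26.7% to 33.7% lower without overlap with 1 library left out. These shares were 19.6% and 17.4% with median scaling, 18.3% and 18.9% with quantile normalization, 18.1% and 18.6% with TMM scaling, 17.5% and 17.2% with the length correction, and 24.3% and 13.1% with voom. Among genes that kept their sign, the range was 0.073 to 0.13 for Prosbeta1, -0.17 to -0.033 for Rpn1 and -0.18 to -0.046 for Rpn6. Single genes whose sign changed had ranges of Prosalpha2 -0.019 to 0.11, Prosalpha3 -0.082 to 0.050, Prosalpha6 -0.032 to 0.056, Prosbeta2 -0.034 to 0.0092, Prosbeta3 -0.012 to 0.033, Prosbeta6 -0.0067 to 0.061, Rpn10 -0.068 to 0.15, Rpt1 -0.010 to 0.084, Rpt2 -0.065 to 0.075, Rpt4 -0.15 to 0.079, Rpt6 -0.054 to 0.073, Rpn12 -0.11 to 0.17, Rpn3 -0.10 to 0.14, Rpn7 -0.10 to 0.0071, Rpn9 -0.097 to 0.029, cnc -0.091 to 0.16, Pomp -0.043 to 0.23, PI31 -0.060 to 0.039, REG -0.058 to 0.20, Sem1 -0.070 to 0.092. Where values changed sign, the cause was not tested. Rpn13R has no value with a filter of 5 RPKM.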

Other observations

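Other ring and lid-like complexes gave a comparison of the same kind. Over all 7556 tested genes, 4258 had a fold change above 0. The cytosolic chaperonin, the ring that folds actin and tubulin, had 7 of 8 subunit genes above 0 and a median of 0.14. Of its genes, 0 passed the test (limma adjusted p = 0.822 to 0.981). Without overlap 4 were higher and 0 lower, beside 21.7% and 15.2% of all tested genes. With the length correction 1 was higher and 0 lower, beside 17.5% and 17.2% of all genes, and the median was 0.11. Without the supplemented library B the median was 0.034 with 5 of 8 above 0, and without the supplemented library C it was 0.24 with 8 of 8. All 8 were lowest in the supplemented library B, as with CCT2, at 52.0 and 53.2 RPKM on the depleted diet and 41.4 and 49.8 on the supplemented diet. The COP9 signalosome has subunits that resemble those of the proteasome lid, and removes Nedd8 from cullin ligases. It had 7 of 8 genes above 0, a median of 0.07 and 5 genes higher without overlap (21.7% of all tested genes were). Of its genes, 0 passed (limma adjusted p = 0.822 to 0.992). With the length correction 6 of 8 were above 0 and the median was 0.05. Without overlap 3 were then higher and 1 lower, beside 17.5% and 17.2% of all genes. The catalytic subunit of the signalosome, CSN5, had 20.1 and 24.2 RPKM on the depleted diet and 18.4 and 19.7 on the supplemented diet. Of its genes, 7 of 8 were lowest in the supplemented library B, where 1928 of all 7556 tested genes were lowest. CCT2 and CSN5 were picked after their values were seen. No test was made of the difference between these complexes and the proteasome.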
